A study of Mus musculus with 6 samples.

Results

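The genes examined here encode the subunits of mTORC1 and mTORC2, the sensors and GTPases that pass amino acid and stress signals to mTORC1, and the 4E-BPs and S6 kinases that mTORC1 phosphorylates. A set of 43 genes was defined by name from the composition of the pathway, at a time when earlier results of these data were known. Every peak whose nearest gene, as named in the deposited lists, was a member was taken at any distance. Peaks within 5 kb of the transcription start site (TSS) were set apart, since the study used that distance for target genes. The 43 members received 46 of the 17462 listed peaks. A peak in at least 1 list was found for 20 members (46.5%), compared with 34.4% of the 21900 protein-coding genes of the reference annotation, and a peak within 5 kb for 6 members (14.0%, compared with 9.72%).

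ATF4 ChIP-seq had been performed in primary mouse embryonic fibroblasts (MEFs) of strain 129S6/SvEvTac, either Wild-type (WT) or lacking GCN2, kept for 24 h in complete DMEM (+Leu) or in DMEM without leucine (-Leu). Each of the 4 conditions gave 1 library, which combined the chromatin of 2 experiments with 5 or more replicates in each, so differences between lists have no replicate check and no test was made. The WT lists held 4850 peaks with leucine and 6374 without it, the GCN2 KO lists held 3566 and 2672, and the file headers name input DNA of leucine-fed cells of the same genotype as the control of every list. Sequencing depth is not given in the lists, so more peaks and deeper sequencing cannot be told apart. Peak Scores are whole numbers given by the authors on a scale that is not stated, with a lowest value of 13, and they are set side by side across lists only as a description. The lowest value is what 10 times the negative log10 of a q-value of 0.05 gives when cut to a whole number. On such a scale a ratio of scores compares significance, which also depends on depth, rather than the strength of binding. A member without a peak is one to which no peak was assigned as the nearest gene among those listed at the false discovery rate of 0.05, and the loss of GCN2 itself cannot be checked from binding data.

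mTORC1 is a kinase complex that promotes protein synthesis and growth when amino acids, growth factors and energy are plentiful. Amino acids act through the Rag GTPases, which bring mTORC1 to the lysosome and are controlled by GATOR1, GATOR2, the sestrins and the folliculin complex, while the TSC complex restrains mTORC1 by switching off Rheb. ATF4 is a transcription factor of the basic leucine zipper family whose translation increases when GCN2, a kinase that senses uncharged tRNA, phosphorylates eIF2α, and it binds the C/EBP-ATF response element, of which TGATGCAA is the common form.

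Binding that recurred at a site in more than 1 list was found at 3 members, which the study had already named as bound by ATF4. Ddit4 (also called REDD1) activates the TSC complex under stress, and Sesn2 is a leucine-binding protein that inhibits GATOR2. Eif4ebp1, counted here as a substrate, is the repressor of cap-dependent translation that mTORC1 inactivates. These 3 of the 43 members had a peak within 5 kb in both WT lists, as did 157 genes in all, where the reference holds 21900 protein-coding genes. The 46 peaks lay at 41 separate sites when centers 300 bp or less apart were joined. Of these, 4 sites were present in more than 1 list, namely a site upstream of Ddit4, a site upstream of Sesn2, a site in intron 1 of Sesn2 and a site in intron 1 of Eif4ebp1. None of the 32 sites over 5 kb from a TSS was present in a second list. Sharing was also rare over all peaks at any distance. Of WT +Leu peaks 6.35% had a WT -Leu partner, and the other pairs of lists compared had 2.75% or less. These shares include near peaks, and none was computed for peaks over 5 kb alone. The absence of shared distant sites is therefore only described.

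The windows of 150 bp to either side of the peak summits were searched on both strands for TGATGNAA, which includes TGATGCAA. This search was added after seeing the data. Over all peaks, a match was in 7.77% and 15.9% in WT with and without leucine, and in 4.59% and 4.55% in GCN2 KO. Among member sites, all 4 recurrent sites held a match, as did 1 of the 5 sites within 5 kb that were present in a single list and 1 of the 32 more distant sites. The share for all recurrent peaks is not given, so this contrast is only described. The stretches that hold these matches are given here from the mm10 reference, with 50 bases to either side, because they show the motif at the 4 recurrent sites and at the other 2 sites that held it, the Sesn2 promoter and Tsc1 intron 4, which were each present in a single list. They are written in the direction of the motif, with the match in capitals.
Sesn2 upstream, chr4:132514060-132514167, minus strand: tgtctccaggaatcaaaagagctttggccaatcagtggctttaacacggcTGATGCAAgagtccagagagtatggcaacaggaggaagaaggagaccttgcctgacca
Sesn2 intron 1, chr4:132509883-132509990, plus strand: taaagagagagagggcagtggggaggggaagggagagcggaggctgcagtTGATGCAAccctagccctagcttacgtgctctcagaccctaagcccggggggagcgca
Sesn2 promoter, chr4:132510703-132510810, plus strand: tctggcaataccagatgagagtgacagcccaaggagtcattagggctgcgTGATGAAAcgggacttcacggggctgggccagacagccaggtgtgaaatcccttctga
Ddit4 upstream, chr10:59952828-59952935, minus strand: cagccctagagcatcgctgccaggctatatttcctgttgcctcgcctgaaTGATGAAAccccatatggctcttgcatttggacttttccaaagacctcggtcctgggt
Eif4ebp1 intron 1, chr8:27261215-27261348, plus strand: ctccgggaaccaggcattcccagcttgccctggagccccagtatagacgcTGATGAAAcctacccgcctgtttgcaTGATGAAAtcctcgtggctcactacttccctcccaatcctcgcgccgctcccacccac
Tsc1 intron 4, chr2:28661972-28662079, minus strand: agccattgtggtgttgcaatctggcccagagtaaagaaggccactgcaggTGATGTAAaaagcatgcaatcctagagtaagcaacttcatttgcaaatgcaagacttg
Only the upstream and intronic sites of Sesn2 held TGATGCAA itself. Ddit4, the Sesn2 promoter and Eif4ebp1 held TGATGAAA, and Eif4ebp1 held it at 2 places on the same strand. The Tsc1 site held TGATGTAA. A match is a description of the letters in the window and was not tested as a binding site.

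The Ddit4 peak was the strongest of any member in WT +Leu, where it scored 320 and ranked 16 among 4850 peaks. It scored 384 in WT -Leu and ranked 135 among 6374. The centers lay at -1047 and -1107 bp from the TSS (negative distances are upstream), 60 bp from each other, at chr10:59952667-59952967 with leucine and chr10:59952727-59953027 without it, in sequence annotated as intergenic. The TGATGAAA match, from 59952878 to 59952885, was 65 bp from the center in WT +Leu and 5 bp from it in WT -Leu. Neither GCN2 KO list held this site. The GCN2 KO -Leu list named Ddit4 for a different peak, at -18146 bp, which scored 29 and held no match.

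Sesn2 was the member with the most peaks near its TSS. In WT +Leu it had 3 peaks, which scored 54 upstream, 54 in intron 1 and 31 at the promoter. In WT -Leu it had 2 peaks, which scored 646 upstream and 138 in intron 1. The promoter peak was thus listed only with leucine, and the upstream peak had the highest score of any member peak in the 4 lists. The upstream centers lay at -3568 and -3587 bp, which places them among the member peaks nearest to the 5 kb limit, and the intronic centers lay at 488 and 575 bp. The TGATGCAA match in the intron was 31 bp from the center with leucine and 56 bp from it without leucine, while the upstream match lay farther off, at 90 and 71 bp. No GCN2 KO peak was assigned to Sesn2 at any distance, and the nearest GCN2 KO peak to the upstream site was 108405 bp away.

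The Eif4ebp1 peak lay in intron 1 of 2, within 7 bp of the same position in 3 lists. In WT it scored 137 with leucine and 500 without it. In GCN2 KO +Leu it scored 211 and ranked 8 among 3566 peaks. In GCN2 KO -Leu no peak was listed for Eif4ebp1. The centers lay 964, 958 and 957 bp downstream of the TSS, at chr8:27261141-27261441, chr8:27261135-27261435 and chr8:27261134-27261434. The TGATGAAA copies, from 27261265 to 27261272 and from 27261291 to 27261298, lay on either side of these centers or within 4 bp of them, at 22 and 4 bp in the first of these lists, 16 and 10 bp in the next and 15 and 11 bp in the last. This was the only member site found in both genotypes.

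**Figure D1:**
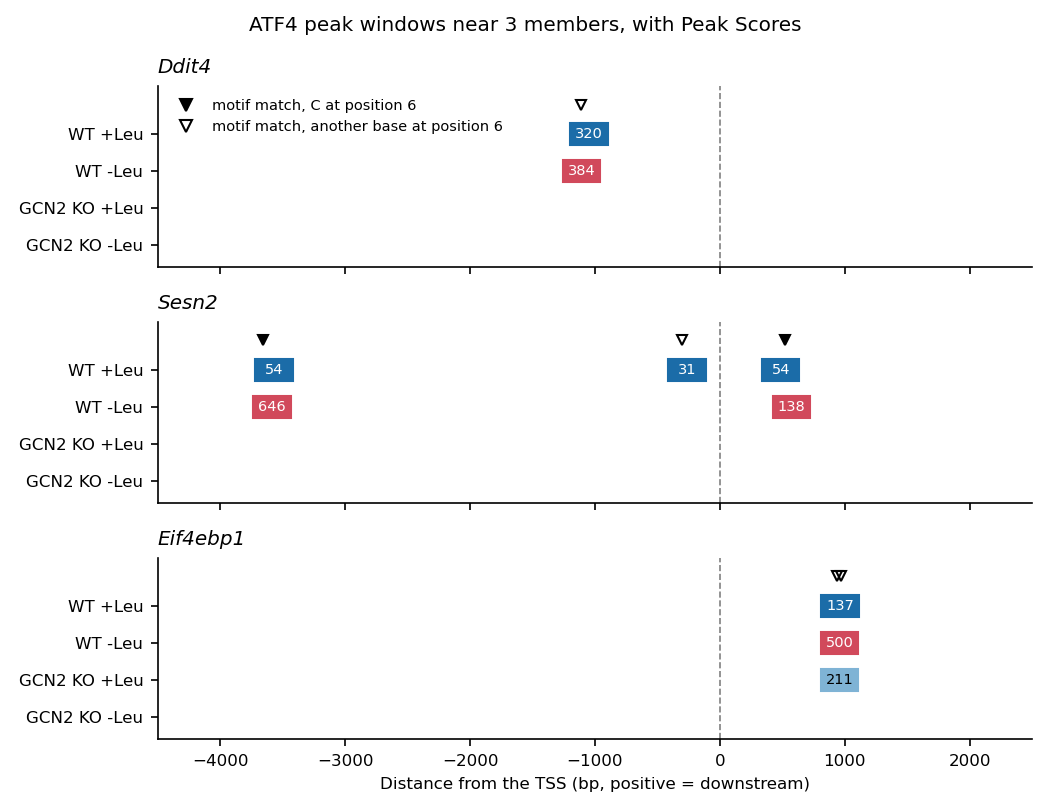
Peak windows (summit and 150 bp to either side) near Ddit4, Sesn2 and Eif4ebp1 in the 4 lists, drawn to scale by distance from the TSS (x axis, bp), with the Peak Score printed in each window and triangles above marking matches to TGATGNAA, filled where the sixth base is C. The Ddit4 and Sesn2 windows appear only in WT lists, and the Eif4ebp1 window is in the same place in 3 lists.

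The 3 members with a peak within 5 kb in both WT lists each had a higher score without leucine. The strongest score went from 320 to 384 for Ddit4 (ratio 1.20), from 54 to 646 for Sesn2 (ratio 11.96) and from 137 to 500 for Eif4ebp1 (3.65). Across the 157 genes with a peak within 5 kb in both lists, 79.6% scored higher without leucine and the median ratio was 2.13, so the direction was the usual one in these lists, and Ddit4 lay below the median ratio while Sesn2 and Eif4ebp1 lay above it. By percentile within the own list, only Sesn2 was higher without leucine. Its strongest peak went from the 93.6th to the 99.1st percentile, whereas Ddit4 went from the 99.7th to the 97.9th and Eif4ebp1 from the 98.9th to the 98.6th. No member had a peak within 5 kb in both GCN2 KO lists, where 49 genes did and 28.6% of them scored higher without leucine.

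Among the inhibitors of mTORC1, 7 of 13 members had a peak in any list (34.4% of all protein-coding genes) and 2 had a peak within 5 kb (9.72% of all protein-coding genes), Ddit4 and Sesn2. All 3 genes of the TSC complex had a peak, but each lay over 5 kb from the TSS. Tsc1, the scaffold subunit, had 1 peak in WT -Leu, in intron 4 of 22, 20843 bp downstream of the TSS at chr2:28661926-28662226. It scored 71, which placed it at the 86.5th percentile of that list, and it held the only TGATGNAA match among the distant member sites. Tsc2, the GTPase-activating subunit, had a peak that scored 22 in GCN2 KO +Leu and another that scored 30 when leucine was withheld from these cells, 35598 and 17321 bp downstream of the TSS. Tbc1d7, the third subunit, had a peak that scored 17 in WT -Leu.

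The other sestrins and stress inhibitors lacked such binding. Sesn1 had only a peak that scored 23 in GCN2 KO -Leu, 37510 bp from the TSS, and Sesn3 had none. Ddit4l, the paralog of Ddit4, had no peak in any list. The 3 subunits of GATOR1, Depdc5, Nprl2 and Nprl3, which inactivate RagA and RagB, also had none. Of the inhibitory subunits of mTORC1, Deptor had a peak that scored 30 in WT -Leu in intron 4 of 8, and no peak was assigned to Akt1s1, which encodes PRAS40.

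Among the activators, 9 of 21 members had a peak in any list and 2 had a peak within 5 kb, compared with 34.4% and 9.72% of all protein-coding genes, so the near count was at the share of all genes. Both near members belong to GATOR2, the complex that restrains GATOR1. Wdr24 had 2 peaks in WT +Leu. The stronger of them scored 59 and was at the 95.7th percentile, and it was centered 402 bp downstream of the TSS within the untranslated part of exon 1. The other scored 24 at 1737 bp, in intron 1. Sec13, a protein shared with the nuclear pore and the COPII coat, had peaks that scored 25 at 3099 bp and 21 at -13392 bp, both in GCN2 KO +Leu. Wdr59 had the strongest distant peak of a member in GCN2 KO -Leu, which scored 44 in intron 8 of 26, and Mios and Seh1l had no peak. None of these GATOR2 windows held TGATGNAA, and each was present in a single list.

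The Rag GTPases, Ragulator and the folliculin complex, which act at the lysosome, had only distant peaks. Rragc, encoding RagC, had 4 of them in 3 lists, which scored 23 in WT -Leu, 20 and 20 in GCN2 KO cells with leucine and 30 in those without, all between 217790 and 262412 bp downstream of the TSS. Rraga, Rragb and Rragd had none. In Ragulator, which anchors the Rags, Lamtor4 scored 29 and Lamtor5 scored 25, each in GCN2 KO +Leu only, and Lamtor1, Lamtor2 and Lamtor3 had no peak.

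The folliculin complex acts on RagC and RagD. Fnip1 had 1 peak in GCN2 KO +Leu, which scored 64, ranked 64 among 3566 and lay at -5194 bp, just outside the 5 kb limit, in a repeat annotated as RMER1B. Fnip2 had 5 peaks in 3 lists, which scored 26 in WT cells with leucine, 43, 23 and 19 in WT cells without it and 28 in GCN2 KO +Leu, between 69160 and 108474 bp downstream of the TSS. No peak was assigned to Flcn. The Fnip2 peaks lay at 5 separate sites, so its recurrence across lists was by gene name and not by position.

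Few peaks were assigned by nearest TSS to the core of the kinase complex, although further peaks named for neighbouring genes lay within Mtor and Rptor. Mtor, the kinase, was assigned 1 peak in WT +Leu, which scored 31 in intron 13 of 57, 19034 bp from the TSS, and this was the highest score in that list among members with only distant peaks. Rptor, the subunit that recruits substrates, Mlst8 and Rheb were assigned none. Of the 4 subunits particular to mTORC2, the related complex that phosphorylates AKT, Rictor and Mapkap1 were assigned no peak, although peaks named for a neighbour lay within Mapkap1. Prr5 had peaks that scored 30, 23 and 30 in WT -Leu and 20 and 16 in GCN2 KO -Leu. Of these only the peak with a score of 20, at -2004 bp, was within 5 kb, and the nearest outside it was at 7864 bp. The Prr5 gene of the reference starts farther upstream, at 84663206 on chromosome 15, so the near peak lies within that gene. Prr5l had 2 peaks in WT +Leu, which scored 21 and 24, and 3 in WT -Leu, which scored 30, 23 and 30, all over 5 kb away.

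Among the substrates, no peak was assigned to Eif4ebp2, Eif4ebp3 or Rps6kb2, although a peak named for a neighbour lay within Rps6kb2. Rps6kb1, which encodes the S6 kinase p70, had the strongest distant peak of any member. It scored 158 in WT -Leu, at the 93.8th percentile, and lay 27981 bp downstream of the TSS in exon 9 of 10, at chr11:86516676-86516976. Coding sequence made up 211 of its bases. The window held no TGATGNAA, which says only that these letters are not in it, and no other list had a peak there, the nearest being 399749 bp away.

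**Figure D2:**
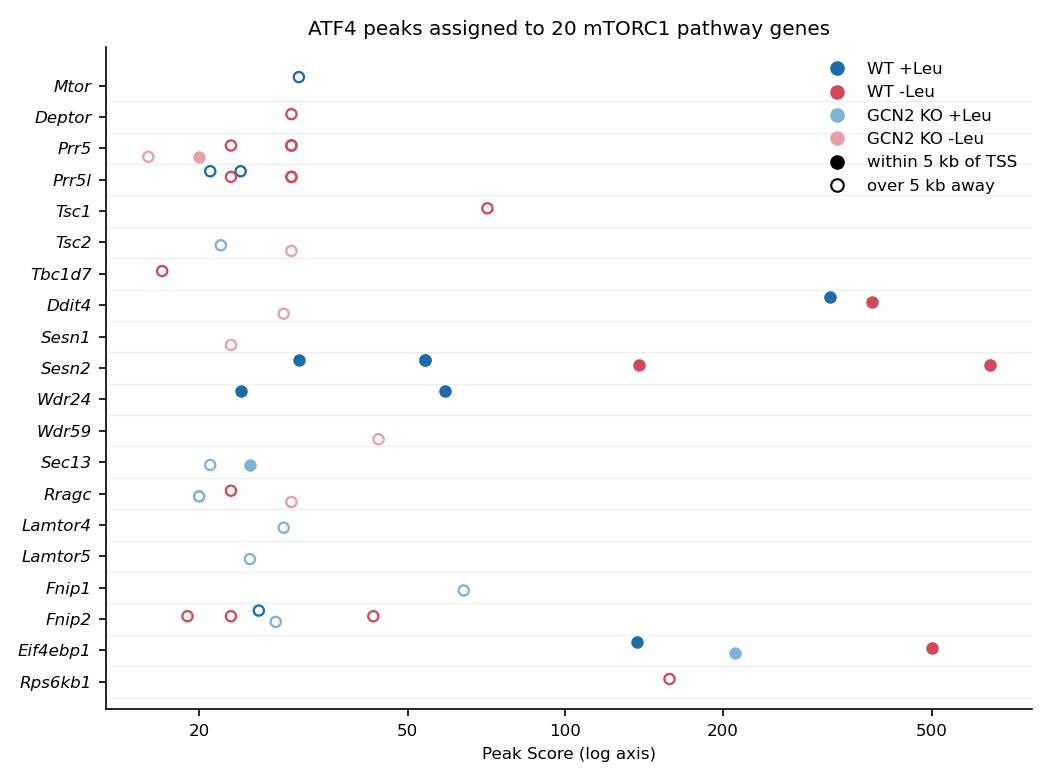
Peak Scores (x axis, log scale) of all 46 peaks assigned to the 20 members that had any, in order of their role in the pathway, colored by list, with filled circles for peaks within 5 kb of the TSS and open circles for peaks farther away; peaks of the same gene, list and score lie on top of each other. Scores of 100 or more are found only at Ddit4, Sesn2, Eif4ebp1 and Rps6kb1.

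Counted by list, a peak at any distance was assigned in WT to 7 of 43 members with leucine (16.3%, compared with 14.6% of all protein-coding genes) and 11 without it (25.6%, compared with 18.3%). In GCN2 KO it was assigned to 8 with leucine (18.6%, compared with 11.1%) and 6 without it (14.0%, compared with 8.56%). The members' peaks numbered 11, 18, 10 and 7 in the same order. Within 5 kb the members with a peak in WT were 4 with leucine (9.30%, compared with 3.03%) and 3 without it (6.98%, compared with 4.4%), and those in GCN2 KO were 2 with leucine (4.65%, compared with 2.26%) and 1 without it (2.33%, compared with 1.61%). A single member makes up 2.33% of the set, so several of these shares differ from that of all genes by about 1 member or less. The comparison also depended on the genes taken as background. A narrower background was the 7535 protein-coding genes with a peak in at least 1 list, against which the 20 members with a peak were set. Within 5 kb the members' share was then 2.27 and 1.17 times that background in WT with and without leucine. In GCN2 KO it was 1.52 and 1.07 times. At any distance it was 0.826 and 1.03 times in WT, and 1.24 and 1.21 times in GCN2 KO.

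**Figure D3:**
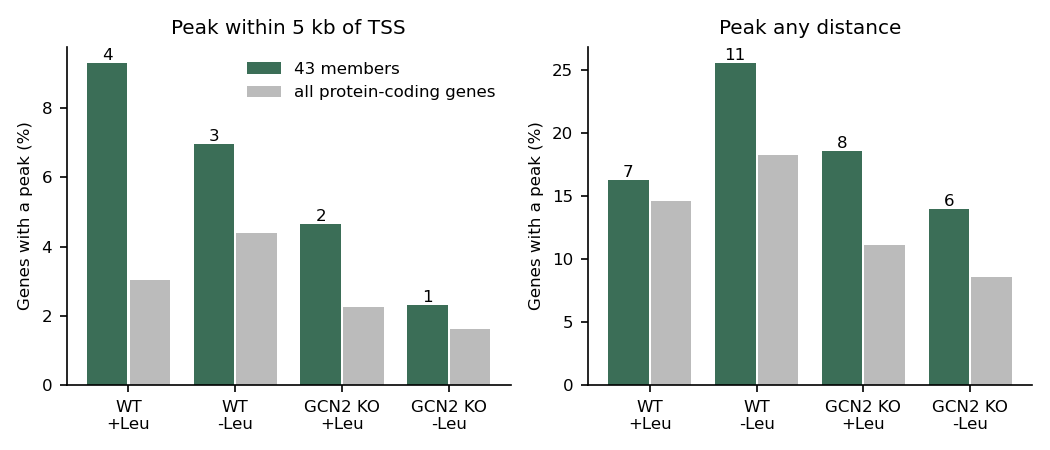
Share of the 43 members and of 21900 protein-coding genes with a peak within 5 kb of the TSS (left) or at any distance (right), in percent, for each list, with the number of members printed above their bars. The members' bars fall from 4 genes in WT +Leu to 1 in GCN2 KO -Leu within 5 kb, and at any distance they are highest in WT -Leu with 11 genes.

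The scores of the near peaks were higher than those of near peaks in general in the WT lists. The median score of the members' peaks within 5 kb was 54 in WT +Leu (7 peaks) and 442 in WT -Leu (4 peaks), compared with 29 and 30 over all peaks within 5 kb in those lists. These peaks belonged to 4 and 3 members, and Sesn2 gave 3 and 2 of them. The members were chosen with earlier results of these data known. The study had also named Ddit4, Sesn2 and Eif4ebp1 as bound by ATF4, so the higher scores are not an independent finding. In GCN2 KO the 2 peaks with leucine had a median of 118 and the single peak without leucine scored 20, compared with 29 and 29. The more distant member peaks had medians of 25 and 30 in WT with and without leucine, and 23.5 and 29.5 in GCN2 KO, while all distant peaks had medians of 30, 30, 29 and 30. Of the 32 distant member peaks, 26 scored 30 or less.

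**Figure D4:**
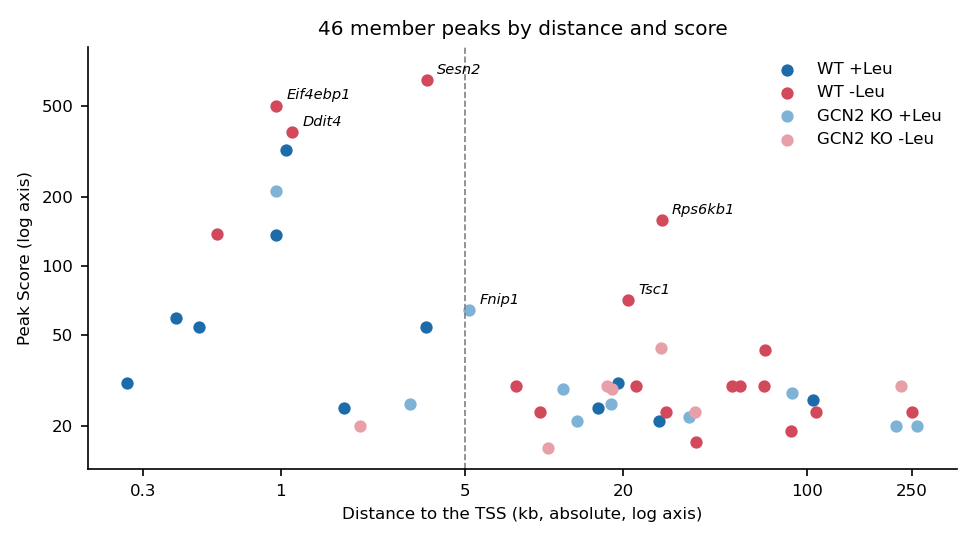
Peak Score (y axis, log scale) against the absolute distance to the TSS (x axis, kb, log scale) for the 46 member peaks, colored by list, with the dashed line at 5 kb. The peaks of Sesn2, Eif4ebp1 and Ddit4 reach the highest scores and lie left of the line, and Rps6kb1, with 158, is the highest to its right.

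Members with only distant peaks had a median length of 61764 bp (14 genes, from 3914 to 169943 bp). The median was 13980 bp for the 6 members with a near peak and 20612 bp for the 23 members with no peak. Over all protein-coding genes, those with only distant peaks had a median of 34976 bp and those with no peak 13212 bp. The part of gene length in these assignments was not tested.

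Sharing of member peaks between lists was set beside that of all peaks. Of the 11 member peaks in WT +Leu, 4 had a partner in WT -Leu, with centers 300 bp or less apart, compared with 6.35% of all WT +Leu peaks. These 4 belonged to Ddit4, Sesn2 (upstream and in intron 1) and Eif4ebp1, and all lay within 5 kb of the TSS. The share of 6.35% is over peaks at all distances. Near peaks were 7 of the 11 member peaks but 811 of all 4850. Of the 10 in GCN2 KO +Leu, none had a partner in GCN2 KO -Leu, compared with 2.75%. Between genotypes, 1 of the 11 WT +Leu peaks, that of Eif4ebp1, had a GCN2 KO +Leu partner, compared with 1.92%, and none of the 18 WT -Leu peaks had a GCN2 KO -Leu partner, compared with 1.27%.

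TGATGNAA anywhere in the window was more frequent among the near member peaks of the WT lists. This search was added after seeing the data. The match was present in 5 of 7 near peaks in WT +Leu and 4 of 4 in WT -Leu. All peaks within 5 kb held it in 13.9% and 19.6% of cases in those lists. Sesn2 alone gave 3 of the 5 and 2 of the 4. In GCN2 KO +Leu 1 of 2 held TGATGNAA, compared with 7.97%, and in GCN2 KO -Leu the single near peak did not, compared with 6.34%. Of all member peaks only the Sesn2 intron peak of WT +Leu had TGATGCAA within 50 bp of its center, which is 1 of 11 in that list and 0 of 18, 10 and 7 in the others, compared with 2.71%, 6.95%, 1.07% and 1.09% of all peaks. TGATGCAA within 50 bp was the main planned search. Among near peaks it was in 1 of 7 in WT +Leu and 0 of 4 in WT -Leu. The shares of all peaks within 5 kb were 7.15% and 10.2%. In promoters, taken as the 250 bases before and 50 after each RefSeq start in GRCm38.p6, TGATGNAA was in 1 of 41 promoters of the 36 members that could be matched, that of Lamtor4, compared with 3.97% of 32851 promoters. TGATGCAA was in none of the 41, compared with 0.895%.

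A second list of 44 pathway genes outside the set, holding other amino acid sensors, growth factor and energy inputs and further mTORC1 effectors, was examined for comparison, and 43 of them were matched in the reference. A peak within 5 kb was listed in WT for 3 of the 43 with leucine and 3 without it, in GCN2 KO for 4 and 1, and in any list for 6. The shares of all protein-coding genes in the same order were 3.03%, 4.4%, 2.26% and 1.61%, and 9.72% in any list, so some of these counts were within about 1 gene of the share of all genes. Trib3, a pseudokinase that inhibits AKT, had promoter peaks that scored 101 in WT with leucine, 540 in WT without it and 58 in GCN2 KO +Leu. Lars, the leucyl-tRNA synthetase that also signals leucine to the Rags, had peaks at the TSS that scored 73, 278 and 36 in the same lists. Larp1, a repressor of the translation of ribosomal protein mRNAs, scored 80 in WT +Leu and 65 in WT -Leu, with no GCN2 KO peak within 5 kb. The remaining 3 genes had a weak peak in a single GCN2 KO list each, with scores of 24 for Eef2k and 29 for Srebf1 with leucine and 25 for Pdpk1 without it. Like Eif4ebp1, Trib3 and Lars scored higher without leucine in WT and had a GCN2 KO peak within 5 kb only with leucine.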

How the data were processed

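ATF4 ChIP-seq peak lists of 4 conditions, 1 library each, were used. The authors trimmed the reads, aligned them to mm10 with BWA 0.7.12, called peaks against input DNA with MACS2 2.1.0 (false discovery rate 0.05), kept the summit ±150 bp and annotated the windows with HOMER 4.7. For each window the authors deposited a score, which is not normalized between libraries, its signed distance in bp to the nearest TSS, and its contents of GC and of CpG, each as a fraction of the bases. The listed GC content equalled that of the GRCm38 reference for all peaks on assembled chromosomes. The 2 input libraries were not analysed here.

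Member peaks, common peaks (centers 300 bp or less apart), ranks, percentiles and motif matches were computed with Python 3.11.15, numpy 2.4.6, pandas 2.3.3, pysam 0.24.0 and samtools 1.23.1, and figures with matplotlib 3.10.9. The steps were tested on simulated data. Shares of all genes were taken over protein-coding genes matched by Entrez ID. The members and gene lists were chosen with earlier results of these data known. Named by rule were members with a peak within 5 kb, the strongest of those with only distant peaks in each list, those in 3 or more lists, and other pathway genes with a peak within 5 kb. Values of other members were chosen for print after they were seen. Alternatives covered the score, number of peaks, TSS distance, gene assignment and background, overlap distance, ranks and motif. The combination of TGATGNAA with a window of 150 bp was added after seeing the data.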

Additional observations from a re-analysis of the deposited data

Results flagged for a closer look

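Eif4ebp1 differed between the 2 genotypes. Its score went from 137 to 500 without leucine in WT. In GCN2 KO it was 211 with leucine, and no peak was listed without leucine, so there is no score to compare. The number of members with a peak at any distance went from 7 to 11 in WT and from 8 to 6 in GCN2 KO. The number of their peaks went from 11 to 18 in WT and from 10 to 7 in GCN2 KO. The lists as a whole went the same ways, from 4850 to 6374 peaks in WT and from 3566 to 2672 in GCN2 KO. With 1 library per condition the difference between genotypes was not tested.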

How the results depend on the processing

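Of the alternative values of the main counts and scores, 60 were labelled as unchanged, all within 1.5 times the reported value, and 26 as moved. Those labelled as moved include a smaller change, that of the highest member score in WT -Leu from 646 to 500. A score of 30 or more left, in GCN2 KO with and without leucine, 2 and 3 members with a peak at any distance and 1 and 0 within 5 kb; of the other pathway genes it left 2 and 0 within 5 kb. With the 2672 strongest peaks of each list, 6 members had a peak in WT -Leu. Within 1 kb, the members numbered 1 in GCN2 KO with leucine and 0 without it, and 2 other pathway genes in GCN2 KO +Leu; within 10 kb the other pathway genes numbered 6 in WT -Leu and 2 in GCN2 KO -Leu. Counting any peak within 5 kb of a member's TSS gave 5 members in WT -Leu. Taking the peak nearest to the TSS, the highest member score in WT -Leu was 500, and Sesn2 scored 31 with and 138 without leucine. With an overlap distance of 1000 bp, 1 site was common to WT -Leu and GCN2 KO -Leu. Members scoring higher without leucine in WT were 1 of 3 by percentile and 5 of 5 at any distance (1015 of 1611 genes), and in GCN2 KO 2 of 2 at any distance (323 of 706 genes). TGATGCAA within 50 bp was in 1 member peak in WT +Leu and 0 in the other lists, and within 150 bp in 2 of each WT list. TGATGNAA within 50 bp was in 3 peaks of WT +Leu, 2 of WT -Leu and 1 of GCN2 KO +Leu, and within 150 bp in 5, 5 and 1. No paired analysis was possible because each condition had 1 library.

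Depth is not in the lists, no replicate exists, and 26 of the 32 distant member peaks scored 30 or less, so neither the presence nor the absence of a single weak peak has a known error.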

Other observations

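Several peaks near or within member genes were named for a neighbour and stand outside the counts. Within 5 kb of a member's TSS, a WT -Leu peak named for Tbc1d17 lay at -3764 bp from the Akt1s1 start and scored 23, and a WT -Leu peak named for Rab25 lay 4274 bp downstream of the Lamtor2 start and scored 27. Within gene bodies, Rptor held 3 WT -Leu peaks that scored 23, 23 and 17. Mapkap1 held 2 peaks in WT +Leu that scored 53 and 13 and 2 in GCN2 KO -Leu that scored 26 and 20, all named for Gapvd1. Mtor held 2 peaks named for Angptl7, which scored 31 in WT +Leu and 27 in WT -Leu. Rps6kb2 held a GCN2 KO +Leu peak named for Ptprcap that scored 24, and Tsc1 held a GCN2 KO -Leu peak named for 1700026L06Rik that scored 26. Prr5l held peaks named for Commd9 that scored 19 in WT +Leu and 17 in WT -Leu. Rptor, Mapkap1 and Rps6kb2 are therefore without a peak only by the assignment to the nearest TSS. The assignment also worked the other way. Some counted peaks lay outside the member gene of the reference, in sequence annotated as an intron. They were the peaks of Sec13 at -13392 bp, Lamtor4 at -11766 bp, Tbc1d7 at -37657 bp and Sesn1 at 37510 bp.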
